A study of Mus musculus with 8 samples.

Results

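The pluripotency factor genes described here are 10 genes, Pou5f1, Nanog, Sox2, Klf4, Klf2, Esrrb, Tbx3, Zfp42, Lin28a and Prdm14, chosen by name from the 22367 protein-coding genes of the mouse annotation. Each was followed as a locus, meaning the gene span and 10 kb on each side, and together the loci held 438030 bp. 5-Hydroxymethylcytosine (5hmC), the base made when TET enzymes oxidize methylated cytosine, was measured by GLIB-Seq, in which 5hmC is glucosylated, oxidized with periodate, biotinylated, pulled down and sequenced. The data used were 6 lists of peaks, 1 library for each condition, so that no spread between replicates exists, no difference between libraries was tested, and the 95% intervals given below cover counting error only.

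The ESC library came from the mouse embryonic stem cell line E14. The shGFP and shSuz12 libraries came from the same line after transfection with a hairpin against GFP, a gene these cells lack, or against Suz12, a core subunit of Polycomb repressive complex 2 (PRC2), and all 3 are thus models made in 1 cell line. MEFs were C57BL/6 embryonic fibroblasts labelled embryonic day 11, for which the study's methods give a later day, and brain and liver were whole tissues of C57BL/6 mice aged 8 weeks, so that cell types within them cannot be told apart. RNA-Seq libraries of the hairpin-treated cells were not analysed here, and neither the expression of the 10 genes nor the depletion of Suz12 was read from these lists. The lists held 130408 to 217025 nuclear peaks. Their sequencing depth is unknown, and their lowest scores differed, with 80 in ESC and liver, 50.02 in shGFP, 30.34 in shSuz12 and 30 in MEF and brain. The score is what the peak caller MACS gave each peak and is read here as −log10 of the peak's p-value, multiplied by 10. A weak region can therefore appear in the MEF, brain or shSuz12 list that would have been left out of the ESC or liver list.

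As background, the DNA-binding proteins encoded by Pou5f1 (Oct4), Sox2 and Nanog form the core of the network that keeps embryonic stem cells undifferentiated. Klf2, Klf4, Esrrb, Tbx3 and Prdm14 encode further transcriptional regulators that sustain the naive state, Zfp42 (Rex1) is a zinc finger gene used as a marker of that state, and Lin28a encodes an RNA-binding protein that blocks maturation of let-7 microRNAs. In adult tissues most of these genes are silent, although Klf2, Klf4, Tbx3 and Sox2 also act in particular somatic cells. 5hmC is known to lie in gene bodies and at enhancers, and to be low at the CpG-rich starts of active genes.

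5hmC peaks were dense at these loci in all 3 ESC libraries. The 10 loci held 82 peaks in ESC, 84 in shGFP and 73 in shSuz12, against 44 in MEF, 35 in brain and 25 in liver. Divided by the share of the genome that the loci take, the share of each list's peaks was 2.89 in ESC (95% exact interval 2.30 to 3.59), 3.83 in shGFP (3.05 to 4.74) and 3.19 in shSuz12 (2.50 to 4.01). The ratio for MEF was 1.23 (0.893 to 1.65), that for brain 1.35 (0.938 to 1.87) and that for liver 1.16 (0.752 to 1.72). The loci of all protein-coding genes, measured the same way, stood at 1.61 in ESC, 1.57 in shGFP, 1.59 in shSuz12, 1.39 in MEF, 1.65 in brain and 1.81 in liver. The pluripotency loci thus lay above the value of all genes in each ESC library, with that value outside the interval, and below it in MEF, brain and liver, where it fell inside the interval in MEF and brain and outside it in liver. Peaks of 1 gene are not independent of each other, and Esrrb alone held 46 of the 82 ESC peaks. Without Esrrb the ratio was 2.16 in ESC (1.51 to 2.99), 3.10 in shGFP and 2.23 in shSuz12, and 0.95 in MEF, 0.982 in brain and 1.34 in liver, so that the value of all genes then lay inside the intervals of ESC, shSuz12, MEF and liver. When only peaks scoring 80 or more were kept in every list, the ratio of all 10 genes was 4.64 in shGFP (3.51 to 6.01) and 3.85 in shSuz12 (2.16 to 6.35). It was 1.06 in MEF (0.566 to 1.82) and, from 2 peaks, 0.365 in brain (0.0442 to 1.32). The loci of all protein-coding genes then stood at 1.58, 1.66, 1.42 and 1.82 in the same order. Without Esrrb the 4 ratios at this cut were 3.87, 3.06, 1.11 and 0.31.

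**Figure D1:**
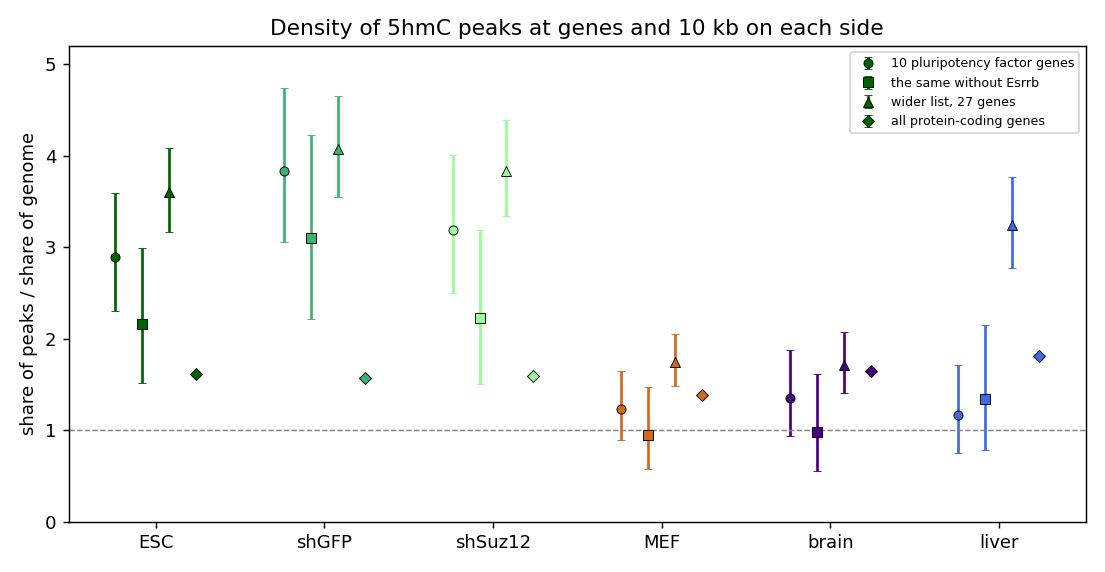
The share of each list's peaks that touched the loci, divided by the share of the genome in them, is plotted for the 6 libraries, with exact 95% intervals that cover counting error only and a dashed line at 1. The 10 genes (circles) sit at 2.89 to 3.83 in the 3 ESC libraries and at 1.16 to 1.35 in MEF, brain and liver, the same genes without Esrrb are squares, 27 further genes of the network are triangles, and all protein-coding genes are diamonds.

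The bases under peaks also stood higher in the 3 ESC libraries, by little in shSuz12. The median locus had 16.7% of its bp under peaks in ESC, 16.0% in shGFP and 8.11% in shSuz12, against 7.25% in MEF, 4.91% in brain and 5.51% in liver. The medians over all protein-coding genes were 9.89, 5.96, 4.33, 6.42, 8.25 and 7.68% in the same order, so the pluripotency genes stood above them in the ESC libraries and MEF and below them in brain and liver. The locus with the most 5hmC in ESC was Esrrb, with 29.9% of bp under peaks, followed by Klf2, Prdm14 and Sox2, and the only locus with no ESC peak was Zfp42. Within 10 kb of the transcription start site (TSS), a window of 1 length for every gene, 5 of the 10 genes (Nanog, Sox2, Esrrb, Lin28a and Prdm14) had more bp under peaks in ESC than in each of MEF, brain and liver, as did 26.5% of all protein-coding genes. At Esrrb the margin over MEF was small, at 20.9% against 20.6% of bp. Over the whole loci Klf2 joined them, giving 6 of 10, against 27.5% of all genes. When only peaks scoring 80 or more were kept, Pou5f1 and Klf4 were added, giving 8 of 10 loci against 36.7% of all genes. This cut removed no ESC or liver peak, but left 74068 of 217025 peaks in MEF and 33202 of 157511 in brain. The counts could therefore only stay or rise.

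**Figure D2:**
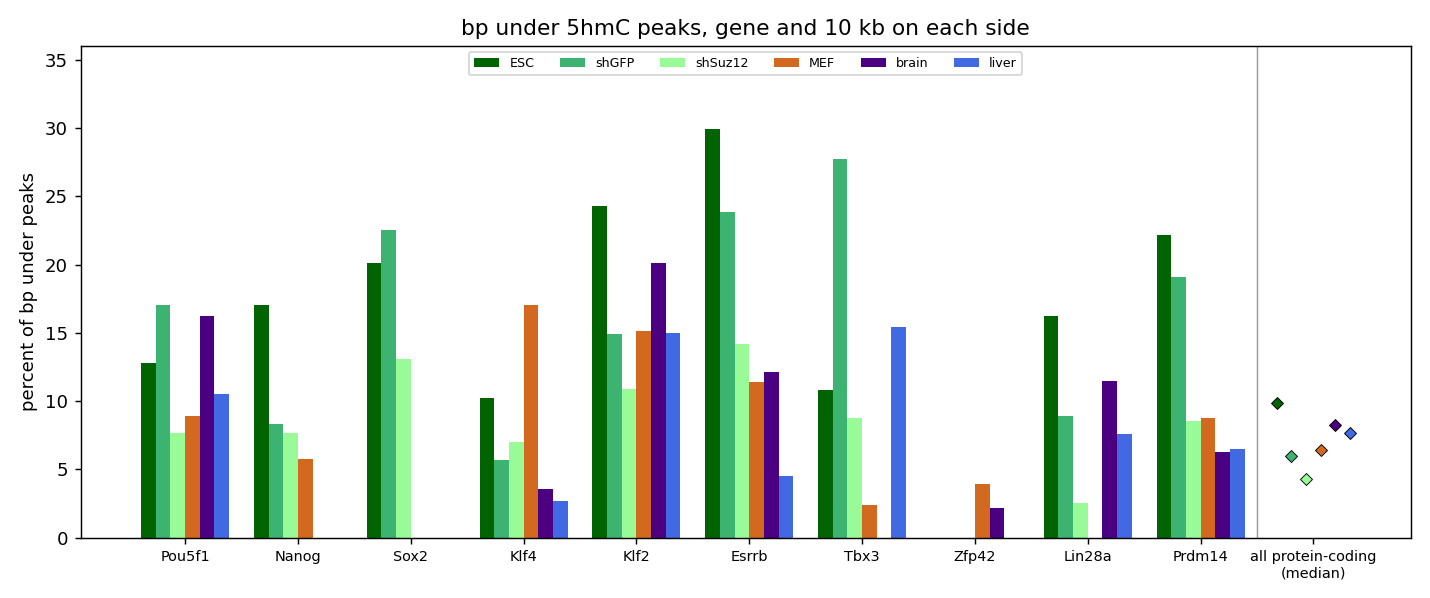
Bars give the percentage of bp under 5hmC peaks at each gene with 10 kb on each side, in the 6 libraries, and diamonds give the median over all protein-coding genes. Sox2 has bars in the 3 ESC libraries alone, Zfp42 has none in ESC, and Tbx3 is higher in shGFP and liver than in ESC.

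The starts of these genes were mostly free of peaks, as were those of most protein-coding genes. In ESC, 2 of the 10 genes (Esrrb and Prdm14) had a peak within 1 kb of the TSS, against 31.9% of all protein-coding genes. The count was 3 in MEF (Nanog, Esrrb and Zfp42), against 30.1%, 1 in brain (Klf2), against 20.0%, and 0 in liver, against 29.4%. It was 2 in shGFP (Nanog and Esrrb), against 27.1%, and 0 in shSuz12, against 21.4%. Peaks within the gene span were also no more frequent than in other genes. They were found in 5 of the 10 genes in ESC (67.8% of all genes), MEF (61.0%), brain (60.7%) and liver (57.9%), and in 4 of 10 in shGFP (63.4%) and shSuz12 (63.0%). The genes with a peak inside the span in ESC were Nanog, Esrrb, Tbx3, Lin28a and Prdm14. A longer gene has more room for a peak, and gene length was not matched here. All of the 10 genes but Esrrb spanned 2457 to 15512 bp. In the 10 kb downstream of the gene, by contrast, 9 of 10 had an ESC peak, against 58.5% of all genes. The median there was 16.9% of bp, against 7.42%. In the 10 kb upstream, 8 of 10 had an ESC peak, against 57.5% of all genes, with a median of 8.7% against 6.58%. In shGFP the count was 9 of 10 in each flank, against 51.3% of all genes upstream and 52.4% downstream. In shSuz12 it was 6 upstream, against 50.1%, and 9 downstream, against 51.8%.

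A stretch around the TSS that was under no peak in any of the 6 libraries measured 13608 bp at Sox2, 8901 bp at Lin28a, 7423 bp at Pou5f1, 5604 bp at Klf4, 4861 bp at Zfp42, 4339 bp at Tbx3, 4087 bp at Nanog, 2324 bp at Prdm14 and 2135 bp at Klf2. Esrrb had none. The median was 4600 bp, against 3045 bp over all protein-coding genes. The quartiles over all genes were 808 and 15691 bp and enclosed the stretch of each of the 10 genes but Esrrb. Even at Sox2, 73.4% of all genes had a shorter stretch, so the starts did not stand out in length. The 4 genes with CpG-rich promoters, Sox2, Klf4, Klf2 and Tbx3, had 25 to 40 CpGs in the 300 bases around the start, against a median of 11 over all genes, and had no ESC peak there. The 2 genes with an ESC peak at the start, Esrrb and Prdm14, had 7 and 10 CpGs, but Nanog with 4, Lin28a with 8 and Pou5f1 and Zfp42 with 11 had none, so that CpG number did not separate the starts with a peak from those without. A CpG-rich start and both starts with an ESC peak are printed with CpGs in capitals, on the strand of the gene, from 250 bases before the TSS in mm9. The Sox2 start, at chr3:34548677-34548976 on the + strand, had 25 CpGs and no peak in any library. The Esrrb start, at chr12:87701817-87702116 on the + strand, lay under a peak in ESC and shGFP. Its end alone met a MEF peak, which began 25 bp after the TSS. The Prdm14 start, at chr1:13117195-13117494 on the − strand, met a peak in ESC alone.
Sox2 start: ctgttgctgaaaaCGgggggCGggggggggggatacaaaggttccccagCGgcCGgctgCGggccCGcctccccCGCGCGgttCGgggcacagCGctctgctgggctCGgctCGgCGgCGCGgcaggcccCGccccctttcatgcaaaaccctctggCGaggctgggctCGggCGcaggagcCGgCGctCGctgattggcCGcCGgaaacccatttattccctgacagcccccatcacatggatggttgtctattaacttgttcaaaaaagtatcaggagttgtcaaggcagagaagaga
Esrrb start: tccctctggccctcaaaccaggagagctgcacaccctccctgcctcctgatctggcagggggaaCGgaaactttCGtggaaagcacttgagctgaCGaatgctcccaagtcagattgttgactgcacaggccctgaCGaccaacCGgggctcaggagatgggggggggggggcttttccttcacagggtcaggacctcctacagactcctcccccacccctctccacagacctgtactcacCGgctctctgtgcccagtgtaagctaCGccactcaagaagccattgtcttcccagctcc
Prdm14 start: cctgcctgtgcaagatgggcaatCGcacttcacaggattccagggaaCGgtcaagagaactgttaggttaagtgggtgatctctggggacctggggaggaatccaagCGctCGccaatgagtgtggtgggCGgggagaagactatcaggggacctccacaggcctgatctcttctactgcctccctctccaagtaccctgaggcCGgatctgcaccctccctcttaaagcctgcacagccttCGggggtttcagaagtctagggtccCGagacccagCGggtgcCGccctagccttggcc

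**Figure D3:**
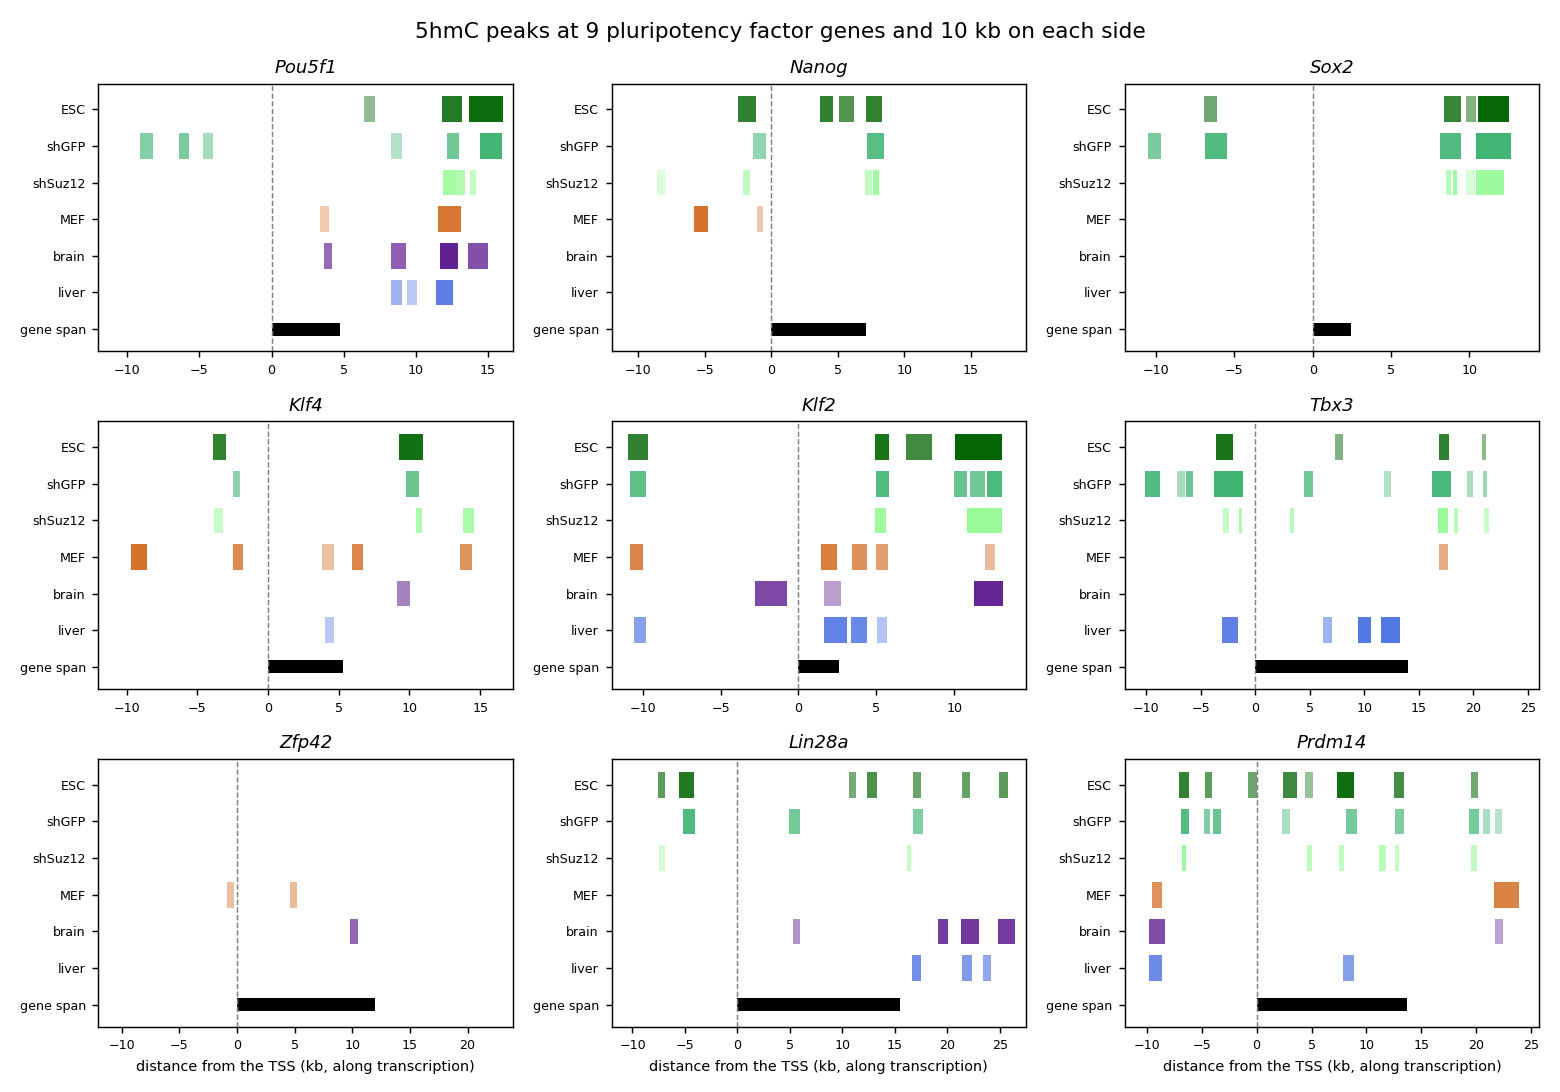
Peaks at 9 of the genes are drawn as bars at their distance from the TSS in kb, read along transcription, with 1 row per library and the gene span in black. Within a row a darker bar has a higher score than more of its own list. At Sox2 the bars are in the 3 ESC rows alone, and at Pou5f1 all 6 rows have a bar 11.4 to 13.4 kb downstream of the TSS.

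Pou5f1 (ENSMUSG00000024406.9, chr17:35642982-35647721, + strand) had no peak within its span in the ESC, shGFP, shSuz12 or liver library. The only region inside it, 3378 to 4164 bp from the TSS, was in MEF with a score of 30.11 and in brain with 42.51, weaker than most of either list, with 0.366% of the MEF list and 36.3% of the brain list scoring lower. The ESC peaks lay downstream. A region 13616 to 16041 bp from the TSS had a score of 669.36 in ESC, 316.15 in shGFP, 51.9 in shSuz12 and 51.13 in brain, with no peak in MEF or liver. The region next to it, 11412 to 13389 bp from the TSS, was the only 1 at the 10 loci where the peaks of all 6 libraries met each other, with scores of 354.97 in ESC, 151.05 in MEF, 82.27 in brain, 291.52 in liver, 99.21 in shGFP and 78.08 in shSuz12. Both lie in Cchcr1, the neighbouring protein-coding gene, so that they belong to the locus by distance alone. Upstream of Pou5f1, 3 peaks 4046 to 9153 bp from the TSS, scoring 59.01 to 87.08, were found in shGFP and in no other library. Since 2 of the 3 scores lay under the lowest score of the ESC list, their absence there cannot be told apart from its threshold.

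Sox2 (ENSMUSG00000074637.3, chr3:34548927-34551383, + strand, a single exon) was the only 1 of the 10 genes with peaks in each ESC library and in no other. Each ESC library held 4 peaks at the locus, covering 20.1% of bp in ESC, 22.5% in shGFP and 13.1% in shSuz12, and MEF, brain and liver held none. The nearest peak to the TSS in those lists was 12617 bp away in brain, 22368 bp in MEF and 72016 bp in liver. The strongest region, 10413 to 12629 bp downstream of the TSS, had a score of 950.92 in ESC, 318.97 in shGFP and 100.9 in shSuz12. Another, at 8118 to 9459 bp, had 256.84, 166.17 and 98.91 in the same order, and a further region, 5491 to 6946 bp upstream, had 127.87 in ESC and 171.01 in shGFP with no peak in shSuz12. No base of the gene itself lay under a peak in any library. The peaks fall in the span of Sox2ot, a long noncoding RNA gene that overlaps Sox2. The middle 300 bases of the strongest ESC peak (chr3:34560321-34560620 in mm9, + strand) held 19 CpGs, the most of the 82 ESC peaks at the loci, whose median was 6, the same as over all ESC peaks.
Sox2 downstream peak: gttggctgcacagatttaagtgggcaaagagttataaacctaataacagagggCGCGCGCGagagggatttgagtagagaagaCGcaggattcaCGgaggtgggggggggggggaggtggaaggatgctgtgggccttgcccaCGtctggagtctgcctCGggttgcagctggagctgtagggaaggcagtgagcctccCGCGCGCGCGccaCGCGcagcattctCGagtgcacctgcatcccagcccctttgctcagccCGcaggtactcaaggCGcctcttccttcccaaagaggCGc

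Nanog (ENSMUSG00000012396.5, chr6:122657507-122664651, + strand) had 4 peaks in ESC, 2 in shGFP, 4 in shSuz12 and 2 in MEF, and none in brain or liver. A region of joined peaks 393 to 2487 bp upstream of the TSS scored 292.49 in ESC, 69.11 in shGFP, 47.0 in shSuz12 and 30.88 in MEF. The region over the end of the gene, 7020 to 8472 bp from the TSS, was shared by the 3 ESC libraries alone, with 280.42 in ESC, 144.64 in shGFP and 98.08 in shSuz12. Within the gene, 2 regions with scores of 290.71 and 182.2 were called in ESC and in neither hairpin library, although both scores were well above the lowest score of those lists. MEF had a peak of its own 4769 to 5823 bp upstream, with a score of 191.79. Thus Nanog was not free of 5hmC peaks in MEFs, but neither MEF peak met an ESC peak, the weaker 1 being joined to the upstream region through a shGFP peak.

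Klf4 (ENSMUSG00000003032.7, chr4:55540013-55545347, − strand) encodes a zinc finger factor used in reprogramming, and at its locus MEF had the most peaks and the most bp under them. It held 5 peaks in MEF, 2 in ESC, 2 in shGFP, 3 in shSuz12 and 1 each in brain and liver, and 17.1% of bp were under MEF peaks against 10.2% in ESC. The strongest MEF peak, 8567 to 9716 bp upstream, had a score of 186.51 and was in no other library. ESC had 1 peak on each side of the gene. The weaker, 3008 to 3888 bp upstream, scored 285.68 in ESC and 43.04 in shSuz12. The stronger lay in a region 9147 to 10958 bp from the TSS, beyond the end of the gene, and scored 546.01 in ESC, 109.56 in shGFP, 65.44 in shSuz12 and 36.57 in brain. Among peaks scoring 80 or more, MEF kept 2 peaks and fell below ESC in bp, a cut that removes no ESC peak.

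Klf2 (ENSMUSG00000055148.7, chr8:74842932-74845555, + strand), a close relative of Klf4, had peaks in all 6 libraries, and 3 of its 7 regions were shared by 5 of them. Regions 9662 to 10947 bp upstream and 4921 to 5804 bp downstream of the TSS were in each library but brain, the shSuz12 peak of the former lying beyond the 10 kb flank. At the latter ESC scored 452.41, shGFP 168.96, shSuz12 94.63, liver 85.62 and MEF 52.4. Over the end of the gene, 1431 to 3097 bp from the TSS, liver had a score of 262.94, MEF 104.58 and brain 31.18, and none of the 3 ESC libraries had a peak. Downstream, the region at 9981 to 13963 bp, which runs past the edge of the locus, scored 1280.02 in ESC, 196.25 in shGFP, 185.6 in shSuz12, 77.83 in brain and 35.12 in MEF, with no peak in liver. Peaks thus covered 38.0 to 39.0% of the gene span in liver and MEF and 36.8% in brain, and none of it in the ESC libraries. Chromosome 8 was rich in peaks in the ESC libraries, with 1.75 to 1.84 times the density of the genome against 1.13 to 1.16 in MEF, brain and liver, and the part this plays at Klf2 was not tested. The middle 300 bases of the downstream ESC peak (chr8:74854348-74854647 in mm9, + strand), the second highest ESC score at the loci, had 4 CpGs.
Klf2 downstream peak: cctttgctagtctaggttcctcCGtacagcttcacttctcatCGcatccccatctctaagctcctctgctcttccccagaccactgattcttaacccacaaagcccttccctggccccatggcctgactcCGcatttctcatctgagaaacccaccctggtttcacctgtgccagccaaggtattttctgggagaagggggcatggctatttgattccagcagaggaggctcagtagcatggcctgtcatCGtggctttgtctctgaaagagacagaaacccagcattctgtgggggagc

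Esrrb (ENSMUSG00000021255.10, chr12:87702067-87862578, + strand), an orphan nuclear receptor gene, was the longest of the 10, with a span of 160512 bp, and the only one with a peak over the TSS itself in ESC. That region, from 572 bp before to 1083 bp after the TSS, scored 678.9 in ESC, 342.65 in shGFP and 37.87 in MEF, with no peak in shSuz12, brain or liver. Peaks covered 32.2% of the gene span in ESC, 24.5% in shGFP and 14.5% in shSuz12, against 12.2% in brain, 11.5% in MEF and 5.05% in liver. The ESC peaks were spread over the whole gene, with 30.2, 38.5, 22.3 and 37.9% of bp in its 4 equal parts from start to end. Liver had 2.11, 0, 8.57 and 9.51% in the same parts. The highest ESC score at any of the 10 loci, 1339.4, was at the end of Esrrb, in a region of joined peaks 156275 to 161264 bp from the TSS, where shGFP had 247.3, shSuz12 92.05, liver 85.64 and brain 50.21, with none in MEF. A region near the end, 147892 to 154410 bp from the TSS, was a chain of overlapping peaks in which all 6 libraries took part, although no peak of it met peaks of all the others, with highest scores of 1143.07 in ESC, 311.2 in shGFP, 124.54 in shSuz12, 401.71 in liver, 68.82 in brain and 32.3 in MEF.

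Exons of Esrrb were covered more than introns in each library. In ESC 66.5% of exon bp and 30.9% of intron bp were under peaks, in shGFP 63.2 and 23.0%, and in shSuz12 47.0 and 13.3%. The values were 21.1 and 11.2% in MEF, 14.9 and 12.1% in brain and 20.5 and 4.44% in liver. Esrrb also held regions that were absent from the ESC libraries, such as the 1 at 111917 to 113858 bp, where liver scored 158.72, MEF 98.45 and brain 71.93. Of its 61 regions, 29 were in ESC libraries alone and 8 in MEF, brain or liver alone.

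**Figure D4:**
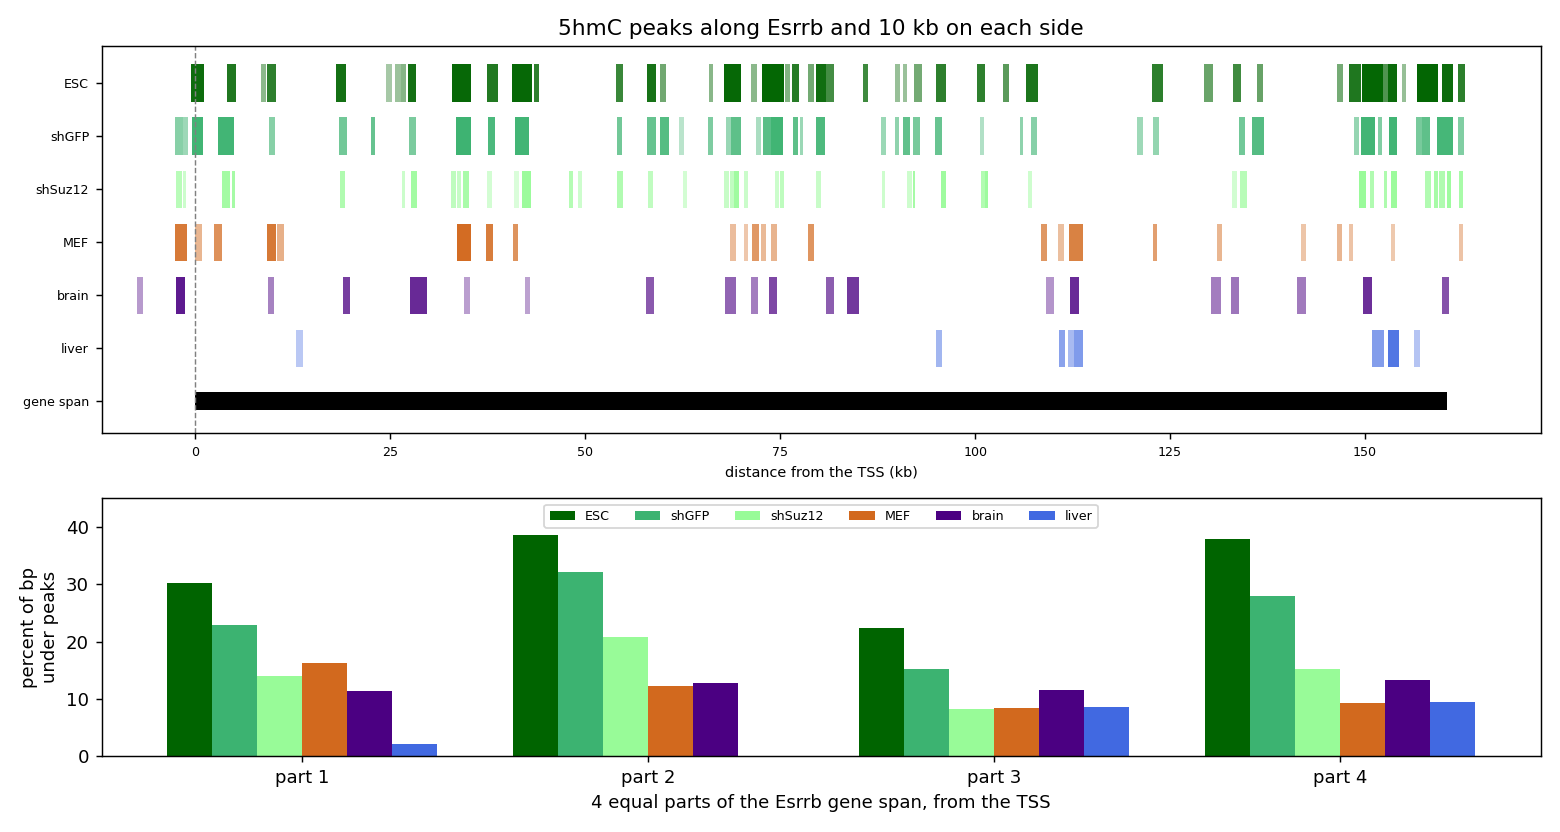
The upper panel draws the peaks along Esrrb and 10 kb on each side by distance from the TSS in kb, with 1 row per library, the gene span in black and darker bars for scores higher in their own list. The lower panel gives the percentage of bp under peaks in 4 equal parts of the gene, where ESC stands at 30.2, 38.5, 22.3 and 37.9% and liver at 2.11, 0, 8.57 and 9.51%.

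Tbx3 (ENSMUSG00000018604.11, chr5:120120678-120134733, + strand), a T-box factor gene, was marked in ESCs and in liver, at a shared region upstream and mostly at different positions within the gene. It had 4 peaks in ESC, 9 in shGFP, 6 in shSuz12, 4 in liver, 1 in MEF and none in brain. Within the gene, liver had its strongest peaks, scoring 373.86 at 9383 to 10618 bp and 389.96 at 11565 to 13258 bp, counted from the TSS, and 26.7% of the span was under liver peaks against 4.99% in ESC. Upstream, the region 1170 to 3810 bp from the TSS was common to both, with 450.12 in ESC, 403.41 in shGFP, 285.47 in liver and 65.44 in shSuz12. Tbx3 was also the locus at which the unperturbed and the shGFP ESC libraries differed most in the upward direction, with 3675 bp under peaks in ESC and 9441 bp in shGFP.

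Prdm14 (ENSMUSG00000042414.7, chr1:13103538-13117244, − strand), a PR-domain regulator gene, had 8 peaks in ESC, 9 in shGFP and 6 in shSuz12, against 3 in MEF, 2 in brain and 2 in liver. The peak next to its start, 3 to 786 bp upstream of the TSS, had a score of 131.95 in ESC and was in no other library, including both hairpin libraries. That presence pattern within 1 kb of the TSS, ESC alone of the 6 libraries, was shared with 427 protein-coding genes, 1.91% of all, and with no gene of a wider list of 27 network genes. Its strongest region, inside the gene at 7323 to 9125 bp from the TSS, scored 584.34 in ESC, 148.08 in liver, 93.56 in shGFP and 48.12 in shSuz12. MEF, brain and liver shared a region of their own 8361 to 9780 bp upstream, with scores of 67.32, 52.28 and 216.16.

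Lin28a (ENSMUSG00000050966.2, chr4:133559245-133574756, − strand) had 7 peaks in ESC, 3 in shGFP, 2 in shSuz12, 4 in brain, 3 in liver and none in MEF. Upstream, a region 4009 to 5573 bp from the TSS scored 373.15 in ESC and 179.13 in shGFP, with no peak in the other libraries. Within the gene, ESC had peaks with scores of 122.35 and 196.36 that met no peak of another library, and a separate region 4893 to 5988 bp from the TSS scored 95.4 in shGFP and 33.52 in brain. The brain and liver peaks were mostly downstream of the gene, where they overlapped ESC peaks at 21279 to 23036 bp from the TSS, with 145.63 in ESC, 157.45 in liver and 62.38 in brain. The downstream flank also holds Dhdds, another protein-coding gene.

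Zfp42 (ENSMUSG00000051176.5, chr8:44380422-44392363, − strand), although a marker gene of the naive state, had no peak at its locus in any ESC library or in liver. The nearest peak to its TSS was 17293 bp away in ESC, 17559 bp in shSuz12 and 18894 bp in shGFP, and 1379366 bp away in liver. MEF had a peak 233 to 889 bp upstream of the TSS with a score of 33.76 and another in the gene with 35.41, and brain had 1 with 43.63. Of the MEF list 11.0 and 15.2% scored lower than these peaks, and of the brain list 38.6%. At a minimum score of 80, no library had a peak at Zfp42. Within 100 kb of its TSS there were 19 peaks in ESC, 11 in shGFP, 13 in shSuz12, 9 in MEF, 5 in brain and 0 in liver. The ESC peaks were thus in the surroundings of Zfp42 and not at the gene or its flanks.

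Windows of 100 kb on each side of the TSS, which contain the loci of all but Esrrb whole, were read in the same way, and 8 of the 10 genes had more bp under peaks than the median protein-coding gene in each of ESC, shGFP and shSuz12, Klf4 and Zfp42 being the other two. The number was 6 in MEF, 5 in brain and 2 in liver, where only Klf2 and Prdm14 stood above it. The medians of the 10 windows were 22.4% in ESC, 18.9% in shGFP and 10.4% in shSuz12, against 10.3, 6.44 and 4.61% over all genes, and 8.42% in MEF, 8.90% in brain and 4.65% in liver, against 7.78, 8.96 and 9.44%.

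Few ESC peaks at these genes were met in the differentiated samples. Of the 82 ESC peaks, 23.2% (95% exact interval 14.6 to 33.8%) overlapped a MEF peak, 24.4% (15.6 to 35.1%) a brain peak and 14.6% (7.80 to 24.2%) a liver peak by at least 1 bp. Among all ESC peaks these shares were 48.0, 44.4 and 38.4%, above each interval. The intervals treat peaks as independent, although 46 of the 82 lay at Esrrb. Without Esrrb the shares were 13.9% in MEF, 16.7% in brain and 19.4% in liver, from 36 peaks. The share met in shGFP was 67.1% (55.8 to 77.1%), against 56.4% of all ESC peaks, and in shSuz12 54.9% (43.5 to 65.9%), against 47.1%. The peaks of the ESC library at the loci were also stronger than most of its list, with a median score of 253.6 against 178.15. The hairpin libraries stood closer to their lists, with medians of 97.4 against 87.2 in shGFP and 54.4 against 53.1 in shSuz12. The MEF, brain and liver peaks there had medians of 56.6, 46.2 and 148.08 against 58.21, 49.81 and 162.39 in their lists.

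When overlapping peaks of the 6 libraries were joined, the loci held 137 regions. Of these, 13 (9.49%) were in all 3 ESC libraries and in no other, against 2.49% of the regions of the genome, and 55 (40.1%) were in 1 or 2 ESC libraries alone, against 17.7%. Regions in MEF, brain or liver alone made up 19.0%, against 45.8%, and those in both kinds of sample but not in all 6 made up 29.9%, against 30.3%. The 13 regions of all 3 ESC libraries lay at Esrrb (6), Prdm14 (3), Sox2 (2), Nanog (1) and Tbx3 (1). Outside Esrrb they were 7 of 76 regions.

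The comparison of shGFP with shSuz12 asks what loss of a PRC2 subunit changes. All but 1 of the loci that had peaks in shGFP had fewer bp under peaks in shSuz12. Within 10 kb of the TSS, 9 of the 10 genes had fewer bp, against 53.1% of all protein-coding genes, and Zfp42, which had none in either library, was the remaining one. Of all protein-coding genes, 20.5% had more bp and 26.3% had none in either library, so that the 53.1% is lowered by genes that could not fall. Within 5 kb, 6 of 10 genes had fewer bp, a count that was not set beside the share of all genes in that window. Over the loci, the lowest ratios were at Lin28a, which went from 3165 to 916 bp (0.289 times), and Tbx3, from 9441 to 2981 bp (0.316 times), and the most bp were lost at Esrrb. Prdm14 went from 6436 to 2877 bp, Pou5f1 from 4213 to 1900 bp, Sox2 from 5060 to 2936 bp and Esrrb from 43000 to 25615 bp, or 0.447, 0.451, 0.58 and 0.596 times. Klf2 was at 0.732 times and Nanog at 0.922 times, and Klf4 was higher in shSuz12, at 1778 bp against 1446 bp.

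This shift has to be read beside the lists as wholes. Summed over the loci, shSuz12 had 0.556 times the bp of shGFP, and over all peaks of the 2 lists 0.689 times. The median ratio over the 9 genes with shGFP peaks was 0.58, against 0.668 over the protein-coding genes with such peaks, and 8 of 9 were below 1, against 80.7% of those genes. The number of peaks at the loci was 84 in shGFP and 73 in shSuz12, and the median peak there was 850.5 bp wide in shGFP and 546 bp in shSuz12, as against 776 and 564 bp in the whole lists. Of the 84 shGFP peaks, 40 (47.6%) met no shSuz12 peak, against 49.5% of all shGFP peaks. Without Esrrb, 24 of 40 shGFP peaks (60.0%) met none, and the summed ratio of shSuz12 to shGFP was 0.507. For peaks scoring 80 or more in both lists, the summed ratio was 0.195 at the loci and 0.243 over all peaks. The part played by depth and by the threshold of each list was not tested, and with 1 library each the effect of the hairpin and the difference between 2 libraries cannot be told apart. The sources used here do not say which Suz12 hairpin the GLIB-Seq cells received.

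**Figure D5:**
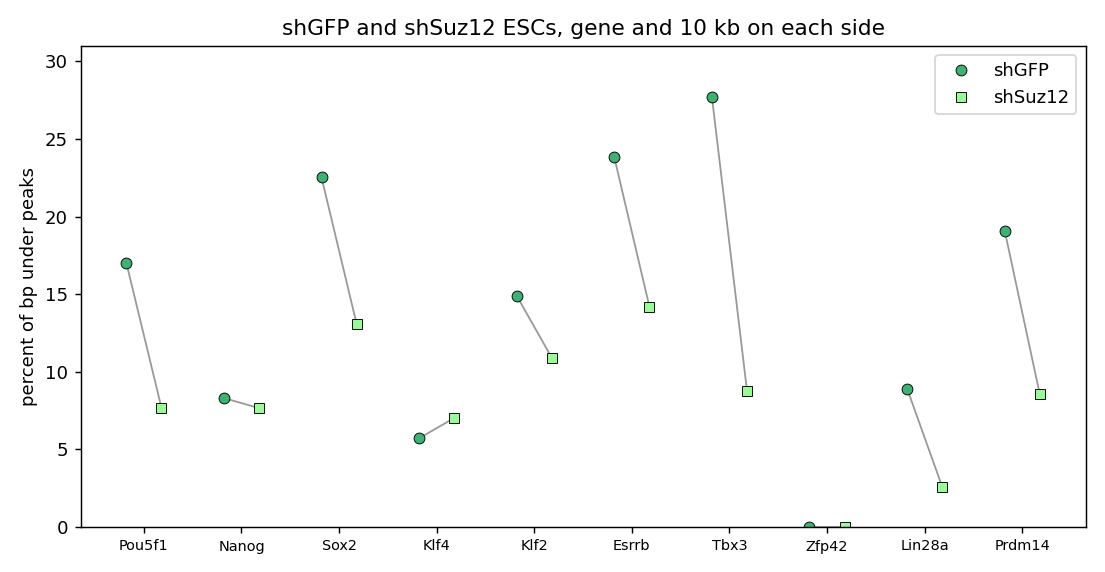
The percentage of bp under peaks at each gene with 10 kb on each side is plotted for shGFP (circles) and shSuz12 (squares), joined by a line for each gene. The line falls at 8 genes, rises at Klf4 and stays at 0 at Zfp42, and over all peaks shSuz12 had 0.689 times the bp of shGFP.

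The wider list of 27 network genes had a density ratio of 3.61 in ESC, 4.08 in shGFP and 3.84 in shSuz12, near that of the 10 genes, and of 1.75 in MEF and 1.71 in brain. In liver it was 3.24, unlike the 1.16 of the 10 genes. A few genes held most of the 169 liver peaks of the list, with 48 at Nr5a2, 24 at Stat3, 22 at Lifr and 20 at Il6st. The density was not recomputed without them. Within 10 kb of the TSS, the highest ESC values in the list were 58.0% of bp at Lefty1, a Nodal antagonist gene, 51.2% at Lifr, the LIF receptor gene, and 45.9% at Lefty2, another Nodal antagonist gene. Lifr was not restricted to ESCs, with 50.5% in MEF, 61.3% in brain and 50.4% in liver. Of the 27 genes, 13 had more bp in ESC than in each of MEF, brain and liver, or 48.1%, against 26.5% of all protein-coding genes. Fewer bp in shSuz12 than in shGFP were found at 16, or 59.3%, against 53.1% of all. More bp were found at 8, or 29.6%, against 20.5% of all. The remaining 3, or 11.1%, had none in either library, against 26.3% of all, so the list did not stand out for falls.

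The sequence letters searched at the ESC peaks were those of the octamer bound by POU factors, ATGCAAAT, and of the Esrrb element, TCAAGGTCA, on both strands of the middle 300 bases. Each was present in 2 of the 82 ESC peaks at the loci (2.44%), against 1.51 and 1.21% of all ESC peaks, so that 2 matches apiece are too few to set the loci apart.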

How the data were processed

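GLIB-Seq was done on genomic DNA of 6 samples, 1 library each. As stated in the study's methods and the submitters' processing notes, the authors called bases with CASAVA 1.8, mapped reads to mm9 with Bowtie 0.12.7, retained reads with 1 hit, removed redundant reads and ran MACS 1.4.1 on each library. The threshold and the control of each list are not given in the sources used here. The score in the deposited lists was given by MACS in the authors' hands and was used here to rank and filter peaks. Because reads with several hits were dropped, peaks in repeats and in near-identical copies may be missing, and this was not tested.

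GENCODE genes and TSSs on NCBIM37, the assembly behind mm9, were used, and no peak passed a chromosome end. The 1 to 3 mitochondrial peaks of a list were left out. A peak counted from 1 bp of overlap, promoters were 1 kb on each side of the TSS, loci were the gene and 10 kb on each side, and intervals were exact (Clopper-Pearson, 95%). Regions are the union of overlapping peaks of the 6 lists. All 10 genes were named, and of the wider list the 3 genes with the highest ESC coverage within 10 kb of the TSS. Its genes with the most liver peaks were also named, after seeing the data. Of the 28 symbols of the wider list, 27 were found. The 10 genes, the wider list and the comparisons were chosen with earlier results of these data known. Alternatives were a score of at least 80, the upper 50% of each list by score, other windows and an overlap that covers 50% or more of each peak. Depth is unknown, so no depth could be set beside a value.

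The tools were Python 3.11.15, pysam 0.24.0 for reading the genome, numpy 2.4.6, scipy 1.17.1, pandas 2.3.3 and matplotlib 3.10.9. The interval counts were tested on simulated peaks, where 2000 of 2000 windows gave the known answer.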

Additional observations from a re-analysis of the deposited data

How the results depend on the processing

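No result was labelled reversed, but most are counts, medians or shares, which have no direction to reverse. A density could be labelled so only where its reported interval left out 1, as in ESC, shGFP and shSuz12. The brain density went from 1.35 to 0.365 at scores of 80 or more and to 0.982 without Esrrb. The MEF density went from 1.23 to 0.95 without Esrrb. The counts of genes below were not set beside the share of all genes in the same setting. Of 160 recomputed values of 38 results, 102 stayed within 1.5 times the reported count, median or ratio, or within the interval of the reported share or density, and 58 moved. The cause of the moves was not tested, except that a stricter score leaves fewer peaks. No paired analysis was possible because there is a single library per group, and there was no replicate to leave out. The alternatives without Esrrb, from any transcript start, without Klf2 and Zfp42, and those of the summed ratio, the density and the counts of genes with more or fewer bp were chosen after seeing the data.

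When only peaks scoring 80 or more were kept, the number of genes with a peak within 1 kb of the TSS became 0 in MEF, 0 in brain and 1 in shGFP, and within the gene 2 in MEF, 0 in brain and 1 in shSuz12. The median percentage of bp over the loci became 3.97 in MEF, 0 in brain and 1.29 in shSuz12, and within 10 kb of the TSS 0 in MEF, 0 in brain, 8.65 in shGFP and 0 in shSuz12. The share of ESC peaks overlapped became 6.10% in MEF and 1.22% in brain, and the share of shGFP peaks with no shSuz12 peak 73.7%. The density ratio in brain became 0.365, and the summed ratio of shSuz12 to shGFP 0.195.

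For the upper 50% of each list by score, the number within 1 kb became 1 in ESC, 0 in MEF and 1 in shGFP, and within the gene 2 in MEF, 1 in brain, 3 in liver and 2 in shSuz12. The median over the loci became 2.04% in brain, 1.71% in liver, 7.96% in shGFP and 5.22% in shSuz12, and within 10 kb of the TSS 2.21% in MEF, 0 in brain, 0 in liver, 8.65% in shGFP and 1.92% in shSuz12. The share of ESC peaks overlapped in MEF became 11.8%.

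With 2 kb on each side of the TSS, 5 genes had a peak in MEF, 2 in brain, 2 in liver, 4 in shGFP and 3 in shSuz12, and with 500 bp 0 in brain. From any protein-coding transcript start, the count was 3 in brain and 1 in liver. With flanks of 5 kb, the median over the loci was 4.21% in MEF and 4.64% in shSuz12, and around the TSS 0 in brain, 0 in liver and 8.31% in shGFP. When the overlap had to cover 50% or more of each peak, 13.4% of ESC peaks met a brain peak and 54.9% a shGFP peak, and 76.2% of shGFP peaks met no shSuz12 peak.

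Without Esrrb, 1 gene had a peak within 1 kb in ESC and 1 in shGFP, and the median within 10 kb of the TSS in liver was 3.39%. The share of ESC peaks overlapped in MEF was 13.9%, the share of shGFP peaks with no shSuz12 peak 60.0%, and the density ratio 2.16 in ESC and 2.23 in shSuz12. Without Klf2 and Zfp42, the densities stayed within their intervals in all 6 libraries.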

Other observations

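The unperturbed and the shGFP ESC libraries, both from the E14 line, differed at single loci without a common direction. The ratio of bp under peaks, shGFP to ESC, was 2.57 at Tbx3, 1.33 at Pou5f1 and 1.12 at Sox2, and 0.861 at Prdm14, 0.797 at Esrrb, 0.613 at Klf2, 0.557 at Klf4, 0.548 at Lin28a and 0.487 at Nanog. Of the 82 ESC peaks, 27 (32.9%) met no shGFP peak, against 43.6% of all ESC peaks. Of the 84 shGFP peaks, 24 (28.6%) met no ESC peak, against 23.7% of all shGFP peaks.

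At Lin28a none of the 3 shGFP peaks met a shSuz12 peak, and both shSuz12 peaks lay elsewhere. At Klf2, 4 of 5 shGFP peaks met a shSuz12 peak. Over the whole shGFP list 50.5% of peaks did so, and the counts at both genes are small.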
